A study of Mus musculus with 9 samples.

Results

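Cerebellar RNA of 84Q mice given IGF-1 was compared with that of 15Q mice, using 6 of the 9 libraries of the series (3 mice per group). All mice were of C57BL/6 background and carried a YAC transgene of human ATXN3, and the repeat had 15 CAG units in 15Q animals but 84 in treated ones. The 84Q+IGF1 mice received IGF-1 at 50 mg/kg by weekly intraperitoneal injection from 9 to 18 months of age, and the tissue of every group was taken at 18 months. The sample labels call the 15Q and 84Q groups untreated, while the treatment protocol names PBS injections. The 3 remaining libraries, of 84Q mice without IGF-1, entered the fit and are given beside the results. Because 84Q+IGF1 and 15Q mice differed in repeat length, in transgenic line and in injection, these cannot be told apart in their comparison. The 15Q and 84Q animals came from separate sources, each library is 1 mouse, and the labels give no sex.

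SCA3 is caused by an expanded CAG repeat in ATXN3, which lengthens a polyglutamine tract in the deubiquitinase ataxin-3, and the cerebellum is among the regions affected. IGF-1 is released mainly by the liver under growth hormone and acts on the receptor tyrosine kinase encoded by Igf1r, which signals through PI3K and Akt and through the MAPK cascade. In the brain it is also made locally and is known for effects on neuronal survival and on myelin-forming cells.

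Of the 37816 genes in the count table, 19353 had enough counts to be tested in the edgeR quasi-likelihood fit, and every adjusted p below is the Benjamini-Hochberg value over those genes. Calls required a fold change of at least 1.5 and an adjusted p below 0.1. Library totals ran from 26925001 to 58269196 counts in 15Q and from 23508574 to 29089855 in 84Q+IGF1, and 3 counts, taken as the floor, equalled 0.0513 to 0.171 CPM over the 9 libraries. CPM are counts scaled to TMM-adjusted library totals, and TPM also divide by exon length. Xist and the Y-linked genes Ddx3y, Eif2s3y, Kdm5d and Uty split the libraries, with Xist at 719 CPM or more in 4 of them (15Q replicates 2 and 3, 1 treated and 1 untreated 84Q mouse) and the Y-linked genes at 184.8 CPM or more in the other 5. The 15Q libraries with Xist nevertheless held 51 and 62 Y-linked counts, against 7 and 1 in the other libraries with Xist. Choroid plexus markers, at 1242, 185 and 1219 summed CPM in 15Q, 205, 2187 and 158 in 84Q and 128, 147 and 225 in 84Q+IGF1, also set libraries of the same group apart.

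Between 84Q+IGF1 and 15Q, 435 genes were called, 2.25% of those tested. Of these, 36 were higher (0.186%) and 399 lower (2.06%) in 84Q+IGF1. All 399 genes called lower and 35 of the 36 called higher had groups that did not overlap in CPM, where 13% of all genes tested had every 15Q library above and 11.7% every 84Q+IGF1 library above. The exception was Capn11. The median log2 fold change over all genes tested was -0.01. Of the genes called lower, 270 had a mean under 1 CPM in 84Q+IGF1 and 43 had no count in any 84Q+IGF1 library. The filter on low counts asks for 3 libraries above a minimum, and 178 of the 399 reached it only through the 15Q libraries, with fewer than 3 others above it. For such genes counts are given without a test. In whole tissue, fewer cells of a type and less RNA per cell cannot be told apart.

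**Figure D1:**
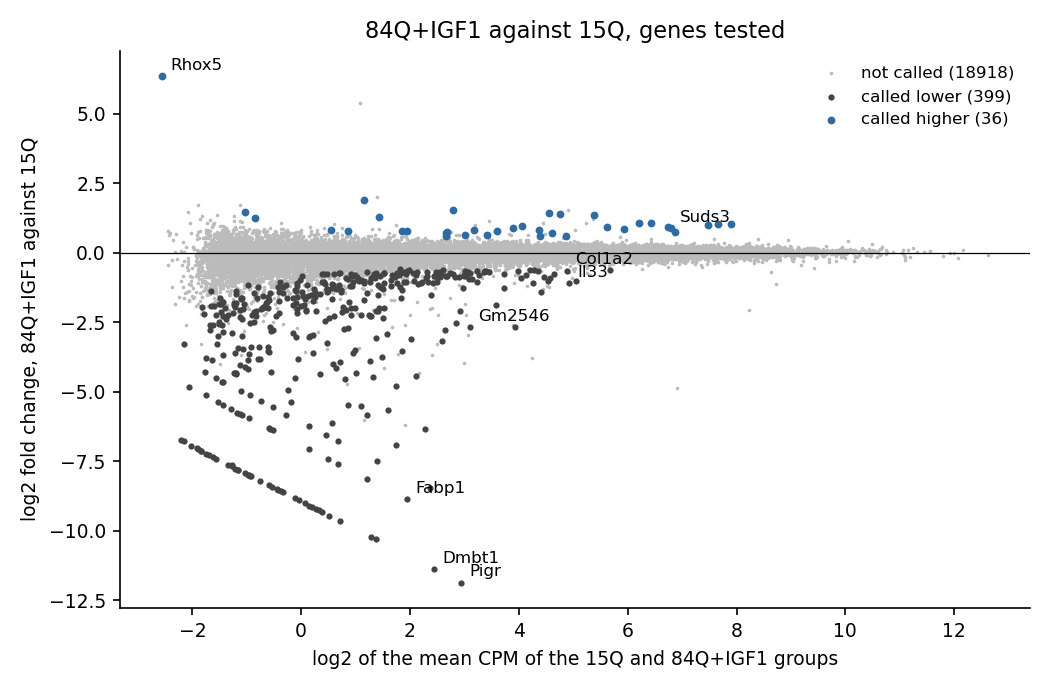
Log2 fold change of 84Q+IGF1 against 15Q (vertical axis) against the log2 of the mean CPM of both groups (horizontal axis) for the 19353 genes tested, 1 point a gene. Genes called lower (399, dark) spread down to low levels, and genes called higher (36, blue) lie below a log2 fold change of 2 except Rhox5; the slanting line of points at the lower left holds genes without a count in 84Q+IGF1, whose plotted fold depends on the prior count of the fit.

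The most certain increase was that of Suds3, which encodes a subunit of the SIN3 histone deacetylase corepressor complex. Its CPM were 79.6, 83.4 and 73.2 in 15Q, 133, 144 and 146 in 84Q and 151, 132 and 149 in 84Q+IGF1. Every library of the 84Q line lay above every 15Q library, whether or not the mouse had received IGF-1. The log2 fold change in 84Q+IGF1 was 0.87 ± 0.07 (SE, n = 3 per group, adjusted p = 5.9e-05), and the call was kept when any library was left out. In TPM the mean rose from 28.2 to 50.7. Suds3 lies on chromosome 5 at 117091680-117116113 (GRCm38, minus strand), and none of the 21 other genes tested that start within 1 Mb of its start was called (median log2 fold change -0.07). Of the 18 genes of the SIN3 complex list, Suds3 alone passed the test. The others included the scaffold genes Sin3a (-0.15, adjusted p = 0.17) and Sin3b (0.12, adjusted p = 0.24), named here after their values were seen.

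A second group of increases was clustered in the genome. Of the 36 genes called higher, 14 lay on chromosome 4 between 41809083 and 42589938 (GRCm38), where 14 of the 29 genes tested were called and 27 had a log2 fold change above 0 (median 0.69). The run was bounded by its first and last called gene, so the calls inside it are a description. The median was 0.09 over the 25 genes tested in the 1000 kb before it and 0.05 over the 33 in the 1000 kb after it, where Gm10591 (0.66, adjusted p = 0.182) and Ccl21a (0.58, adjusted p = 0.193), named after their values were seen, had values like those inside. The called genes were pseudogenes, antisense transcripts and gene models of a segment of repeated copies, among them Gm17081, Gm5859, Gm17167 and Gm13301, and 15 others in the segment, among them Ccl21b, which encodes a chemokine (0.69, adjusted p = 0.203), were not called. Counts of near-identical copies may be split or lost by the aligner, and the strand setting of the counting is not stated, so the gene that gave the reads is uncertain.

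Summed over all 29 genes tested, called or not, the level was 726, 691 and 791 CPM in 15Q and 1301, 1442 and 1379 CPM in 84Q+IGF1. In 84Q it was 720.0, 1410.5 and 1199.6 CPM. The difference between 84Q+IGF1 and 15Q helped to choose this segment, whereas the split within 84Q did not, with replicate 1 at the 15Q level and the other libraries above it. Gm10601 had the largest fold of the run, with 14.2, 13.1 and 17.2 CPM in 15Q against 37.3, 41.5 and 39.3 in 84Q+IGF1 (log2 fold change 1.40 ± 0.19, adjusted p = 0.00259), and its call was kept when any library was left out. Those of Gm17081 (0.98) and Gm13301 (0.995) were lost without 15Q replicate 2, and that of Gm17167 without 15Q replicate 1 (0.86) or 2 (0.82) or 84Q+IGF1 replicate 1 (0.99), 2 (0.86) or 3 (0.95). With robust shrinkage of the dispersions Gm17081 (adjusted p = 0.108), Gm13301 (adjusted p = 0.121), Gm17167 (adjusted p = 0.206) and Gm5859 (adjusted p = 0.103) were not called in edgeR, and Gm17167 was not called with a term for Xist or Y-linked expression either (0.88, adjusted p = 0.115). The 4 gene models without a position in the annotation used were also called higher, with ENSMUSG00000118434 at 23.5 ± 2.5 CPM in 15Q and 59.9 ± 9.1 CPM in 84Q+IGF1 (SD, n = 3; log2 fold change 1.34 ± 0.21, adjusted p = 0.00543). The call of this model was kept when any library was left out. Those of ENSMUSG00000118425, ENSMUSG00000118458 and ENSMUSG00000118603 were lost without 15Q replicate 2. With robust shrinkage ENSMUSG00000118425 and ENSMUSG00000118458 were not called. The place of these 4 models in the genome was not analysed here.

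**Figure D2:**
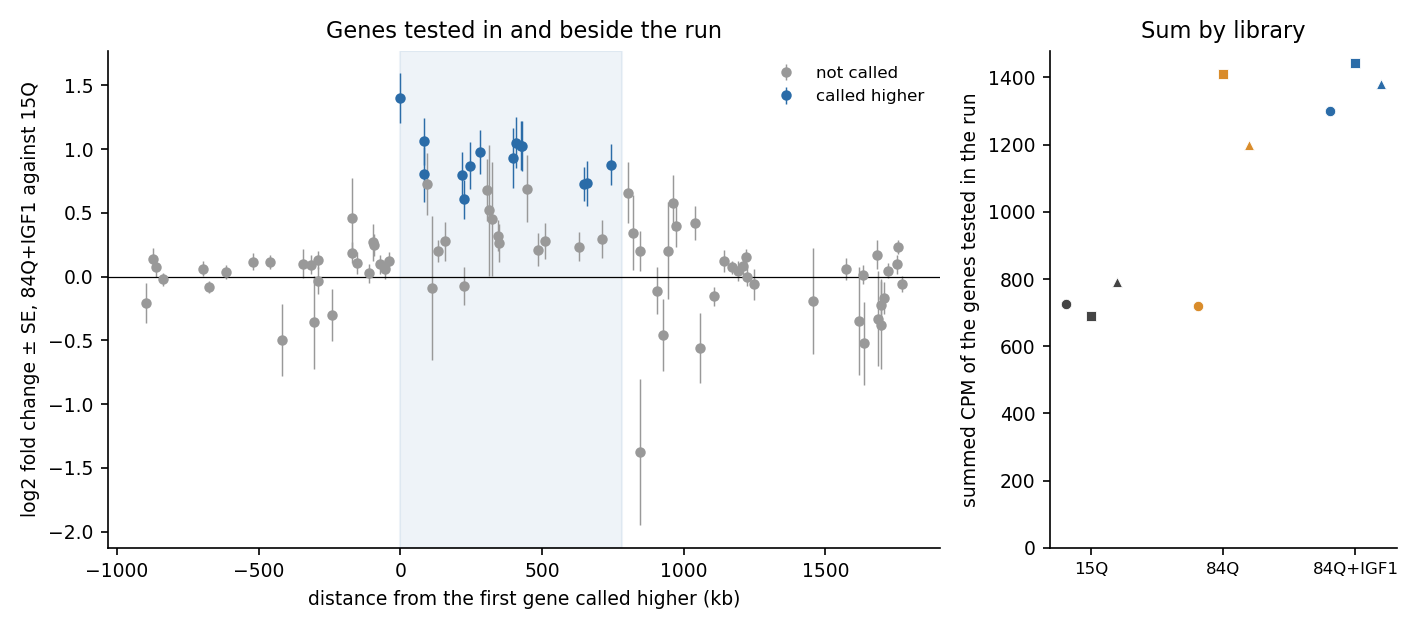
Left, log2 fold change ± SE of 84Q+IGF1 against 15Q for the genes tested in the chromosome 4 run (shaded) and in the 1000 kb on either side, by distance in kb from the first gene called higher. Right, summed CPM of all 29 genes tested in the run in each library, with circles, squares and triangles for replicates 1, 2 and 3; 84Q replicate 1 sits at 720.0, within the 15Q range of 691 to 791.

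Rpl3-ps1 and Rpl3-ps2, processed pseudogenes of the ribosomal protein gene Rpl3 at different places on chromosome X, were also called higher. Rpl3-ps1 had 12.8, 13 and 12.2 CPM in 15Q, 12.8, 31.2 and 13.8 in 84Q and 36.4, 30.5 and 35.4 in 84Q+IGF1. The IGF-1 libraries and 84Q replicate 2 shared the high level. The log2 fold change was 1.43 ± 0.26 (adjusted p = 0.0151), and that of Rpl3-ps2 was 1.52 ± 0.33 (adjusted p = 0.0416). The call of Rpl3-ps2 was lost without 15Q replicate 2 (1.51), 15Q replicate 3 (1.53) or 84Q+IGF1 replicate 1 (1.5). A pseudogene shares its sequence with its parent gene, so the origin of its reads is uncertain too.

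Among the other protein-coding genes called higher, Npas2, Sdf2l1 and Dynlt1b differed by less than Suds3. Npas2, a transcription factor of the circadian clock, had 5.32, 4.37 and 5.42 CPM in 15Q and 7.94, 7 and 7.78 in 84Q+IGF1, without overlap (log2 fold change 0.59 ± 0.12, adjusted p = 0.033). Sdf2l1, a chaperone-associated protein of the endoplasmic reticulum, was at 4.78 ± 0.34 CPM in 15Q and 7.87 ± 1.3 CPM in 84Q+IGF1 (SD, n = 3; 0.72 ± 0.17, adjusted p = 0.0542), and Dynlt1b, a light chain of cytoplasmic dynein, at 16.7 ± 3.4 and 25.3 ± 1.9 CPM (0.59 ± 0.14, adjusted p = 0.0581). Each of these calls depended on single libraries. That of Npas2 was lost without 15Q replicate 2 (0.50) or 84Q+IGF1 replicate 1 (0.56) or 3 (0.57), that of Sdf2l1 without 15Q replicate 2 (0.67) or 3 (0.73) or 84Q+IGF1 replicate 1 (0.59), and that of Dynlt1b without 15Q replicate 1 (0.47) or 2 (0.55) or 84Q+IGF1 replicate 1 (0.57) or 3 (0.55). Npas2 and Dynlt1b were also not called with library totals in place of TMM (0.58 for both) or with a term for Xist or Y-linked expression (0.55 and 0.56), nor was Dynlt1b with no filter on low counts (0.58).

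Rhox5, an X-linked homeobox gene, had no count in any 15Q library, 7, 4 and 8 counts in 84Q and 9, 14 and 3 counts in 84Q+IGF1, at least 4.28-fold higher against the mean floor of the 15Q libraries. It passed the filter only through libraries of the 84Q line, where it is high, so no test is given. Above the minimum were 1 library of 84Q and 2 of 84Q+IGF1. Capn11, a calpain protease, was the gene whose groups overlapped: 24, 41 and 54 counts in 15Q, 13, 22 and 13 in 84Q and 89, 155 and 27 in 84Q+IGF1. Replicates 1 and 2 of 84Q+IGF1 were at 3.82 and 5.84 CPM while replicate 3, at 0.925 CPM, lay within the 15Q range. Its log2 fold change of 1.89 ± 0.49 (adjusted p = 0.0822) was not called when any 15Q library (1.86, 1.95 and 1.87) or 84Q+IGF1 replicate 1 (1.83) or 2 (1.30) was left out.

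Il33 was lower in 84Q+IGF1 and the gene of its receptor higher. Il33 encodes an alarmin of the IL-1 family that in the central nervous system is held in the nuclei of glia, and Il1rl1 encodes its receptor ST2. Il33 was at 41.3, 37.6 and 44.9 CPM in 15Q, 30.1, 20.3 and 23.3 in 84Q and 14.6, 20.7 and 22.1 in 84Q+IGF1. All 15Q libraries were above all others. The log2 fold change was -1.11 ± 0.16 (adjusted p = 0.00372), and the call was kept when any library was left out. Il1rl1 was low throughout, with 8, 10 and 14 counts in 15Q, 29, 18 and 8 in 84Q and 17, 22 and 17 in 84Q+IGF1. It reached the filter only through libraries of the 84Q line, where it is high, so no test is given. Its call was lost without 15Q replicate 2 (1.43) or 3 (1.39) or 84Q+IGF1 replicate 1 (1.44) or 2 (1.33).

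**Figure D3:**
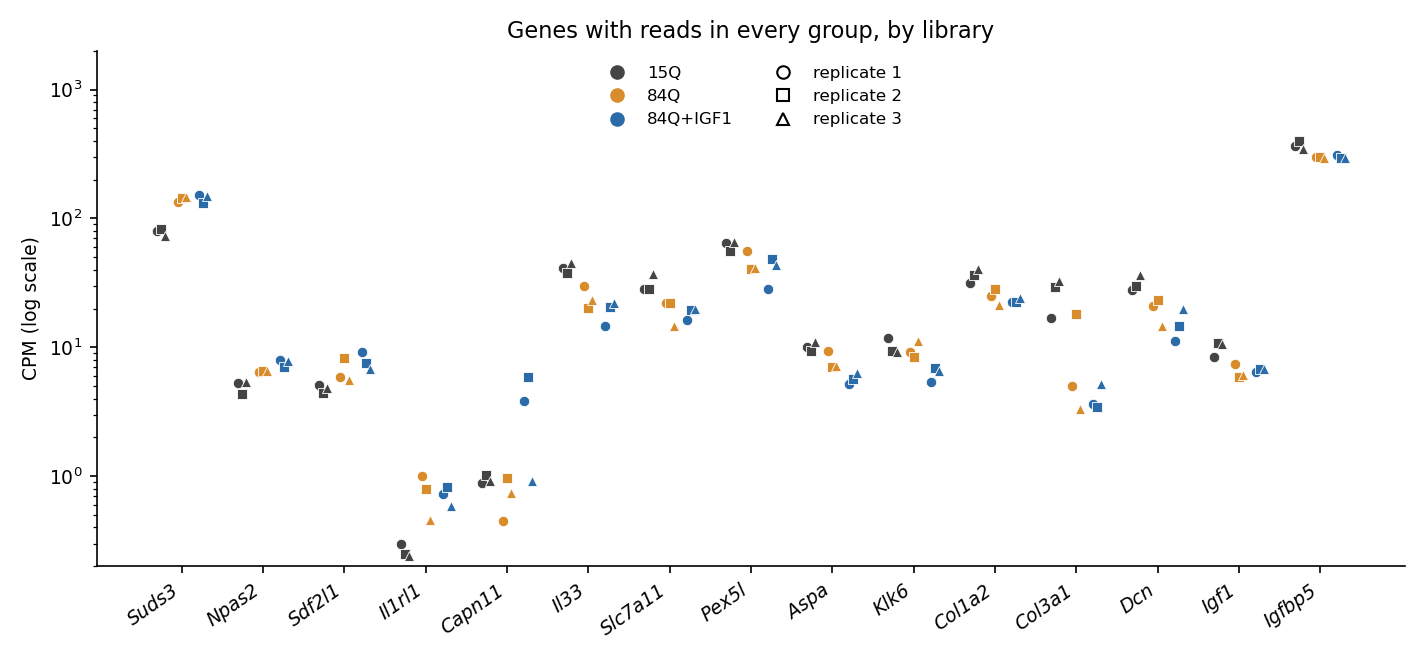
CPM on a log scale of 15 genes in each library, by group (colour) and replicate (symbol). Suds3 separates 15Q from both groups of the 84Q line, Il33 and Aspa are lower in every 84Q+IGF1 library than in every 15Q library, and in Capn11 replicate 3 of 84Q+IGF1 lies with 15Q.

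Some genes of myelin-forming oligodendrocytes passed the test, all of them lower in 84Q+IGF1. Aspa, whose product aspartoacylase releases acetate from N-acetylaspartate for myelin lipid synthesis, was the only one of 22 tested that was called. It was at 10.1, 9.29 and 11.1 CPM in 15Q, 9.28, 7.08 and 7.18 in 84Q and 5.19, 5.72 and 6.31 in 84Q+IGF1, with the 84Q libraries between the other groups (log2 fold change -0.82 ± 0.14, adjusted p = 0.0081). Without the fold threshold 6 of the 22 were lower at an adjusted p under 0.1 and 0 higher, where 2.63% of all genes were lower and 1.04% higher by this rule. The others included, named after their values were seen, the myelin lipid enzymes Fa2h (-0.39, adjusted p = 0.0235) and Ugt8a (-0.48, adjusted p = 0.0495), the tight junction gene Cldn11 (-0.41, adjusted p = 0.0445) and Mal (-0.36, adjusted p = 0.0782). The remaining 16 did not pass, and 5 of the 22 had a log2 fold change above 0. In 10 of the 22 every 15Q library lay above every 84Q+IGF1 library, against 13% of all genes tested. The summed level of the list was 5137, 4905 and 5250 CPM in 15Q, 6083, 4986 and 4870 in 84Q and 3777, 4645 and 4842 in 84Q+IGF1, and Mbp, the myelin basic protein gene, did not pass (-0.09, adjusted p = 0.691).

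Klk6, a secreted serine protease of oligodendrocytes, was at 11.9, 9.39 and 9.20 CPM in 15Q and 9.18, 8.35 and 11.2 in 84Q. In 84Q+IGF1 it was at 5.36, 6.89 and 6.58 CPM, below all other libraries (-0.69 ± 0.15, adjusted p = 0.0425). The call was lost without 15Q replicate 1 (-0.56) or 84Q+IGF1 replicate 1 (-0.58).

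Genes of the meninges and of extracellular matrix were among the calls. Of 42 collagens, laminins and matrix proteins tested, 10 were called lower and 0 higher (median log2 fold change -0.42), and of 18 genes of meninges and fibroblasts 4 were called lower and 0 higher (median -0.89), where 2.06% of all genes were called lower and the median was -0.01. Col3a1, a fibrillar collagen chain, was at 16.8, 29.4 and 32.8 CPM in 15Q, 5, 18.2 and 3.31 in 84Q and 3.65, 3.46 and 5.21 in 84Q+IGF1. All 15Q libraries were above all 84Q+IGF1 libraries, and 84Q replicate 2 lay within the 15Q range (-2.68 ± 0.50, adjusted p = 0.0167), and it was not called with robust shrinkage (adjusted p = 0.124). Among the small leucine-rich proteoglycans, Bgn fell from 28.6 ± 3.8 to 15.4 ± 2.2 CPM (SD, n = 3; -0.89 ± 0.15, adjusted p = 0.0101), Dcn from 31.3 ± 4.4 to 15.3 ± 4.4 CPM (-1.03 ± 0.20, adjusted p = 0.0228) and Lum from 3.36 ± 0.57 to 1.24 ± 0.29 CPM (-1.44 ± 0.24, adjusted p = 0.00973). Col1a2 fell from 35.9 ± 4.5 to 23.0 ± 1.0 CPM (-0.64 ± 0.11, adjusted p = 0.0122) and Nid1, a basement membrane linker, from 23.5 ± 1.7 to 15.4 ± 2.4 CPM (-0.61 ± 0.12, adjusted p = 0.0228).

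Several transporters with known expression in meninges or choroid plexus were also among the genes called lower. They were taken from the calls, and no list of transporters was counted. Slc6a20a, an imino acid transporter, fell from 31.2 ± 5.9 to 16.7 ± 4.4 CPM (SD, n = 3; -0.90 ± 0.21, adjusted p = 0.0531), and Slc13a4, a sulfate transporter, had 25.4, 22.6 and 44.7 CPM in 15Q against 8.97, 12.2 and 13.9 in 84Q+IGF1 (-1.40 ± 0.33, adjusted p = 0.0573). Slc7a11, the cystine and glutamate exchanger of astrocytes and meninges, fell from 31.2 ± 4.9 to 18.6 ± 1.9 CPM (-0.75 ± 0.16, adjusted p = 0.0335). Without 15Q replicate 3 the calls of Col1a2 (-0.55), Dcn (-0.91), Slc13a4 (-1.02), Slc6a20a (-0.73) and Slc7a11 (-0.60) were lost, the matrix list kept 6 calls and the meninges list 1. Without 84Q+IGF1 replicate 1 those of Nid1 (-0.49), Slc13a4 (-1.25), Slc6a20a (-0.70) and Slc7a11 (-0.67) were lost and the meninges list kept 2. The call of Nid1 was also lost without 15Q replicate 2 (-0.56), that of Slc6a20a without 15Q replicate 2 (-0.96) and that of Slc13a4 without 84Q+IGF1 replicate 2 (-1.43), which also left the meninges list with 2. The summed level of the meninges list was 1611, 1623 and 1968 CPM in 15Q against 1436, 1536 and 1474 in 84Q+IGF1. Choroid plexus markers moved with 2 of the 3 15Q libraries, and the part of dissection in these results was not tested. No choroid plexus marker was called of 17 tested (16 at an unadjusted p under 0.05, against 17.7% of all genes tested, and 0 called by DESeq2), and the 15Q libraries differed among themselves, as in Prlr, the prolactin receptor, at 8.96, 1.07 and 15.6 CPM in 15Q and 0.0429, 0.414 and 0.754 in 84Q+IGF1 (-4.33 ± 1.32, adjusted p = 0.13).

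**Figure D4:**
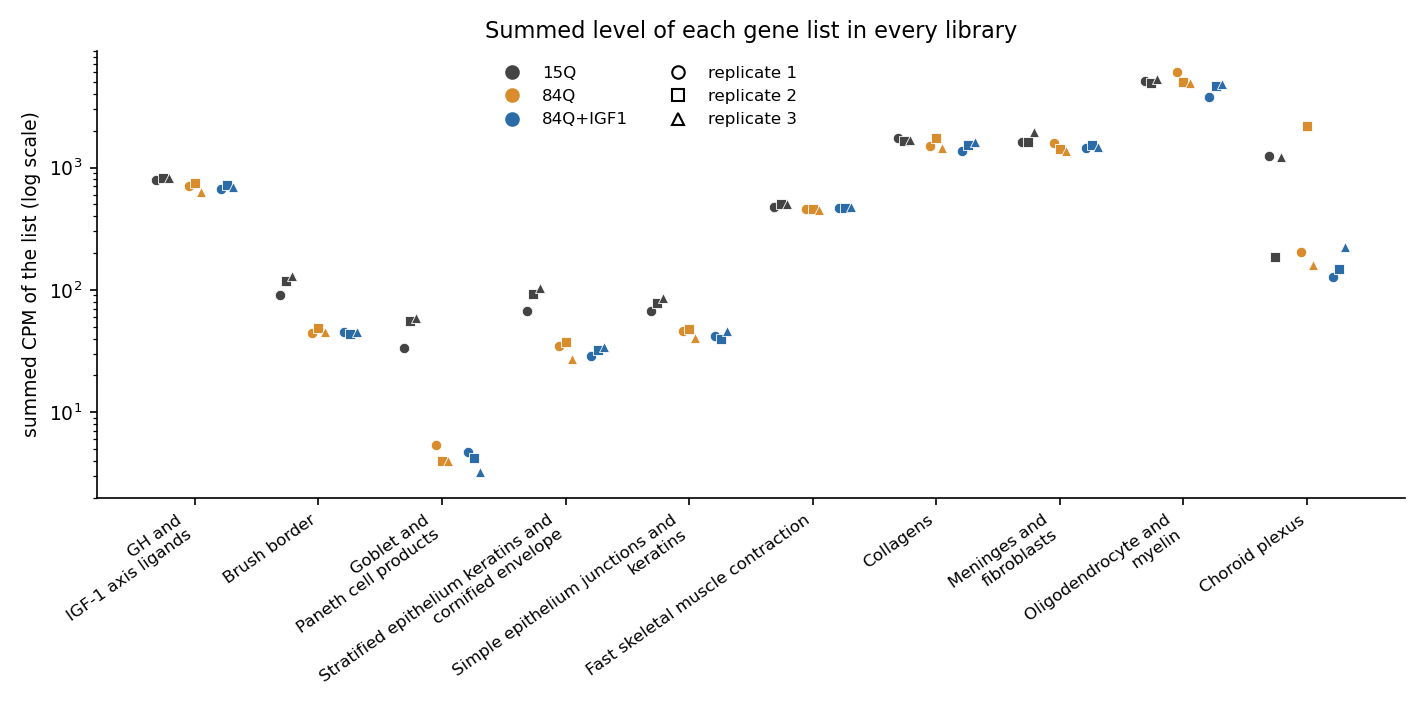
Summed CPM on a log scale of 10 gene lists in each library, by group (colour) and replicate (symbol). In the intestinal and epithelial lists every 15Q library lies above every library of the 84Q line, whereas choroid plexus markers are high in 15Q replicates 1 and 3 and in 84Q replicate 2.

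Some genes of organs other than the brain were present in all 15Q libraries and at or near the floor elsewhere. Defining genes of the absorptive intestinal cell were among them. Fabp1, the fatty acid binding protein of liver and intestine, had 151, 345 and 527 counts in 15Q, none in 84Q and 0, 1 and 0 in 84Q+IGF1, a ratio of 644 (95% counting interval 115 to 2.54e+04). Pigr, which carries IgA across mucosal epithelium, had 249, 731 and 1076 counts in 15Q and none in any library of the 84Q line, at least 133-fold lower in 84Q+IGF1. Dmbt1, a mucosal scavenger receptor, had 187, 488 and 786 counts in 15Q and none in 84Q+IGF1, at least 94.4-fold lower. The groups were separated without exception, and replicate 1 was the lowest of the 15Q libraries in CPM for each of these genes. All 3 passed the filter on low counts only through 15Q, as did Muc13, Fcgbp, Krt14, Epcam, F2, Alb, Myh4, Sis, Alpi and Ifi205, for which counts are given below without a test.

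Other genes that were lower in 84Q+IGF1 kept some counts in the 84Q line. Gm2546, a processed pseudogene on chromosome 7, is in none of the tissue lists, and its reads may come from its parent gene. It had 13.9, 16.4 and 14.2 CPM in 15Q and 2.45, 1.92 and 2.64 in 84Q+IGF1 (-2.67 ± 0.15, adjusted p = 1.3e-05). Cps1, the first enzyme of the urea cycle, was at 7.17, 12.1 and 13.5 CPM in 15Q and 2.06, 1.09 and 1.68 in 84Q+IGF1 (-2.78 ± 0.26, adjusted p = 0.000214). Muc13, a membrane mucin, had 167, 418 and 704 counts in 15Q and 2, 1 and 6 in 84Q+IGF1, and Fcgbp, a goblet cell protein, 105, 283 and 396 counts against 0, 6 and 3.

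Counted over all listed members, whether or not they passed the filter, the brush border and lipid uptake list summed to 91.0, 117 and 129.9 CPM in 15Q, between 44.3 and 48.4 CPM in 84Q and between 43.9 and 45.3 CPM in 84Q+IGF1. The goblet and Paneth cell list summed to 33.6, 55.4 and 58.8 CPM in 15Q, between 3.99 and 5.35 CPM in 84Q and between 3.22 and 4.72 CPM in 84Q+IGF1. Against 2.06% of all genes tested that were called lower, the counts for these and the following lists were as given here. Of the 36 brush border genes, 11 were not tested, 10 passed the filter only through 15Q, and 9 of the remaining 15 were called lower, among them Dpp4, Lgals4 and Cps1. Of the 23 goblet and Paneth genes, 15 were not tested, 5 passed only through 15Q, and 1 of the remaining 3 was called lower. Of the 40 cytochrome P450 and conjugating enzyme genes, 18 were not tested, 11 passed only through 15Q, and 2 of the remaining 11 were called lower, Gstm3 at 12.3 ± 3.7 and 2.87 ± 0.58 CPM (SD, n = 3; -2.10 ± 0.22, adjusted p = 0.000418) and Cyp2e1 at 4.21 ± 1.1 and 1 ± 0.22 CPM (-2.09 ± 0.23, adjusted p = 0.000649).

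Epithelial genes were also higher in every 15Q library when summed. The stratified epithelium list summed to 67.8, 92.9 and 102.8 CPM in 15Q and between 28.9 and 34.4 CPM in 84Q+IGF1, and of its 35 genes 11 were not tested, 15 passed only through 15Q and 5 of the remaining 9 were called lower. Krt14, a keratin of basal epidermal cells, had 96, 315 and 466 counts in 15Q and 7, 6 and 5 in 84Q+IGF1. Of 19 simple epithelium genes, 1 was not tested, 10 passed only through 15Q and 5 of the remaining 8 were called lower. Epcam, an adhesion molecule of epithelium, had 84, 189 and 340 counts in 15Q, 14, 9 and 1 in 84Q and 1, 2 and 3 in 84Q+IGF1. The fast muscle list, by contrast, overlapped between groups when summed, at 472, 506 and 508 CPM in 15Q and 464, 470.5 and 475 in 84Q+IGF1. Of its 34 genes, 9 were not tested, 5 passed only through 15Q and 6 of the remaining 20 were called lower. Myh4, a fast myosin heavy chain, had 88, 206 and 324 counts in 15Q, 1 count in all of 84Q and 1 count in all of 84Q+IGF1, a ratio of 389 (95% counting interval 69.5 to 1.54e+04). Over all its tested members the fast muscle list had 11 calls, and 7 without 15Q replicate 2 or 3. The 11 include the 5 that passed only through 15Q, so these numbers are a description.

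Genes of liver proteins and clotting factors were counted in the same way. Of 20 genes of secreted liver proteins, 12 were not tested, 6 passed only through 15Q and 1 of the remaining 2 was called lower. F2, prothrombin, had 70, 148 and 221 counts in 15Q and 4, 2 and 5 in 84Q+IGF1. Alb, albumin, had 53, 162 and 270 counts in 15Q, 0, 1 and 19 in 84Q and 0, 6 and 0 in 84Q+IGF1. Of 38 complement and coagulation genes, 10 were not tested, 6 passed only through 15Q and 2 of the remaining 22 were called lower. C3, the central component of complement, which brain cells also express, was at 10.9, 22.9 and 22.3 CPM in 15Q, 6.93, 3.82 and 3.99 in 84Q and 4.16, 5.99 and 5.24 in 84Q+IGF1 (-1.87 ± 0.29, adjusted p = 0.00492). Replicate 1 was the lowest 15Q library for each of these genes too, and the part of RNA from other tissues in the lower calls was not tested. Across all 399 genes called lower, 75 were in the other-tissue lists, including genes that passed the filter only through 15Q. The share of these lists among all genes tested was not computed, so this number is a description.

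The promoters of 3 enterocyte genes are shown as examples of the intestinal genes that differed between groups. The genes were chosen by smallest p among those called with 1 promoter in the table, a motif match and no annotated exon in the window. Not every chromosome was eligible, so the ranking did not cover all called genes that met these conditions. Sis and Alpi passed the filter on low counts only through 15Q, so this choice is a description. Each is the 250 bases before the RefSeq start (GRCm38.p6), read 5′ to 3′ on the strand of the gene, and capitals mark the motifs, searched on both strands. The CDX type motif was searched as the letters TTTATNG. The HNF1 type motif, bound by a hepatocyte nuclear factor, was searched as GTTAAT. For the HNF4 type motif the letters were CAAAGTC. The TATA box was searched as TATAAA and can overlap the CDX type.
Sis, chr3:72967864-72968113, minus strand, sucrase-isomaltase: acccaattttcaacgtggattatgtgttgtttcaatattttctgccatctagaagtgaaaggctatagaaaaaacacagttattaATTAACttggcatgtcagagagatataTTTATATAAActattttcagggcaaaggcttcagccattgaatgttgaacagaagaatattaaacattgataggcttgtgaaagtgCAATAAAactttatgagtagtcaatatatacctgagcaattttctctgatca
Alpi, chr1:87101607-87101856, minus strand, intestinal alkaline phosphatase: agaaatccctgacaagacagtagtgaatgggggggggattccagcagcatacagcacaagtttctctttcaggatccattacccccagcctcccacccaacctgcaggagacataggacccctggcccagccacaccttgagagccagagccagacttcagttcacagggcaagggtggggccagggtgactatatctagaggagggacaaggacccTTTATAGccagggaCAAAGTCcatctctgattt
Dpp4, chr2:62412232-62412481, minus strand, dipeptidyl peptidase 4: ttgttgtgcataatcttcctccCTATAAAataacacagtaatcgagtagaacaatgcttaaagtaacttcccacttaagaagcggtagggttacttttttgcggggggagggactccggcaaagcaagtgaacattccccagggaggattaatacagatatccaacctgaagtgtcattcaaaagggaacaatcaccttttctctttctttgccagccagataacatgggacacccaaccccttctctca
Sis had 142, 285 and 446 counts in 15Q, none in 84Q and 4, 0 and 0 in 84Q+IGF1, and Alpi had 28, 57 and 114 counts in 15Q and none elsewhere. Dpp4 kept reads in all groups, at 4.04 ± 1.1 CPM in 15Q and 1.62 ± 0.48 CPM in 84Q+IGF1 (SD, n = 3; -1.32 ± 0.27, adjusted p = 0.0337), and its call was lost without 15Q replicate 2 (-1.25) or 3 (-1.14) or 84Q+IGF1 replicate 1 (-1.10). Of the 24 called genes of the intestinal lists, 14 passed the filter only through 15Q, and 19 of the 24 had a promoter in the table. The HNF1 type was in 31.6% of these and in 7.49% of all 27025 genes with a promoter, the CDX type in 26.3% and 11.3%, the HNF4 type in 15.8% and 4.33%, and the TATA box in 31.6% and 14.3%. For the 21 matched genes of the epithelium lists the shares were 4.76%, 4.76%, 4.76% and 14.3% in the same order. These are matches of letters, with no test, and the genes of a list are not independent of one another.

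For the growth hormone and IGF-1 axis the comparison asked whether the treated mice differed from 15Q in ligands, receptors or binding proteins, and none of the 17 genes tested was called by edgeR or by DESeq2. Of them 4 had an unadjusted p under 0.05, where 17.7% of all genes tested did, and the further counts at that p below are to be read against the same share. The log2 fold change was below 0 in 15 of the 17 (median -0.14), where 48.9% of all genes tested had one above 0, and in 4 every 15Q library lay above every 84Q+IGF1 library, against 13% of all genes tested. The 19 genes listed summed to 785, 814 and 820.0 CPM in 15Q, 701, 749 and 637 in 84Q and 666, 713 and 692 in 84Q+IGF1, with the 15Q libraries the highest. Igf1, the ligand, was at 8.36, 10.9 and 10.6 CPM in 15Q, 7.42, 5.85 and 6.10 in 84Q and 6.48, 6.81 and 6.82 in 84Q+IGF1. All 15Q libraries were above the others, and the log2 fold change of -0.57 ± 0.13 (adjusted p = 0.0531) fell just short of the fold threshold. Without 15Q replicate 1 it was called (-0.67). This measures Igf1 mRNA of the cerebellum, not the injected peptide. Igfbp5, the binding protein gene of the list with the highest TPM (249 in 15Q), was at 366, 398 and 345 CPM in 15Q and 310.3, 295 and 295 in 84Q+IGF1 (-0.30 ± 0.06, adjusted p = 0.0332), below 1.5-fold.

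The receptors did not pass the test. Igf1r was at 129.7, 134 and 145 CPM in 15Q and 105, 131 and 136 in 84Q+IGF1, with overlap (-0.14 ± 0.09, adjusted p = 0.455), and Ghr, the growth hormone receptor, at 6.25, 6.88 and 7.17 CPM against 3.73, 5.50 and 6.20 (-0.39 ± 0.22, adjusted p = 0.382). Igf2 (-1.21 ± 0.45, adjusted p = 0.196) and Igfbp2 (-1.19 ± 0.55, adjusted p = 0.281) had larger but less certain differences. Igfbp2 was at 30.9, 10.2 and 33.0 CPM in 15Q and 54.9 CPM in 84Q replicate 2, the libraries with high choroid plexus markers being the high ones, and 9.82, 11.1 and 11.4 CPM in 84Q+IGF1.

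**Figure D5:**
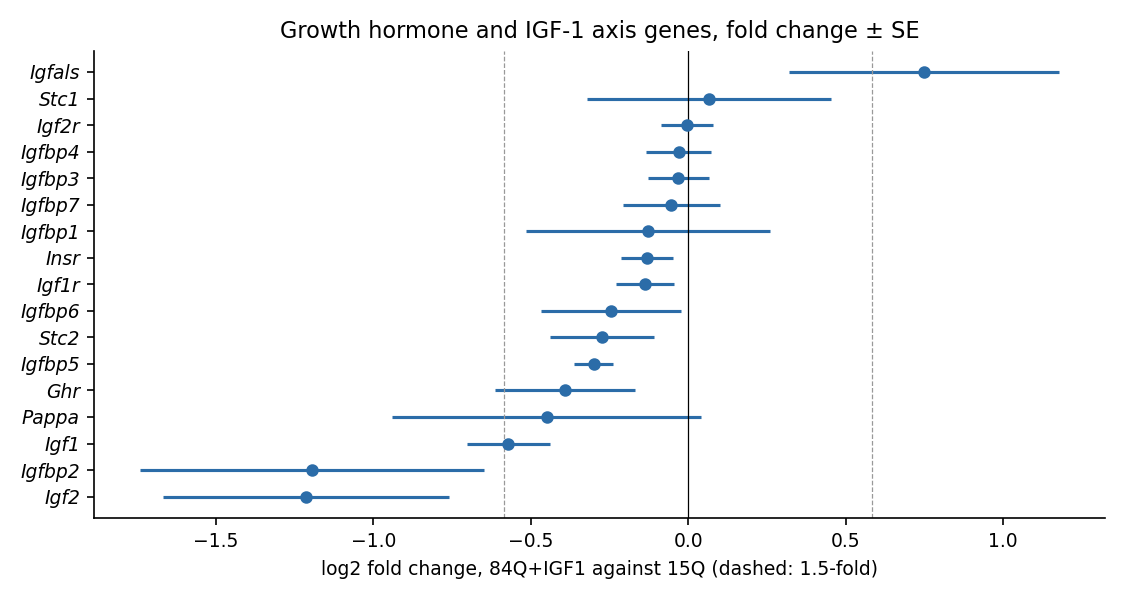
Log2 fold change ± SE of 84Q+IGF1 against 15Q for the 17 growth hormone and IGF-1 axis genes tested, with dashed lines at 1.5-fold. Igf1 (-0.57) lies just inside the lower dashed line and Igfbp5 (-0.30) has the shortest bar, while Igf2, Igfbp2 and Igfals lie beyond the dashed lines with wide bars, and none was called.

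Downstream of the receptors, none of the 42 genes of IGF-1 signal transduction was called by edgeR (median -0.04, 11 at an unadjusted p under 0.05) or by DESeq2. Akt1, the kinase activated by PI3K, had 133 ± 4.0 CPM in 15Q and 149 ± 13 CPM in 84Q+IGF1 (SD, n = 3; 0.17 ± 0.06, adjusted p = 0.186). Pik3r1, a regulatory subunit of PI3K (-0.11 ± 0.09, adjusted p = 0.529), Jak2, the kinase of the growth hormone receptor (0.03 ± 0.07, adjusted p = 0.843), Creb1, a transcription factor (-0.07 ± 0.07, adjusted p = 0.638), and the AMP-activated kinase genes Prkaa1 (-0.08 ± 0.07, adjusted p = 0.603) and Prkaa2 (-0.27 ± 0.10, adjusted p = 0.192) did not pass either. Pik3r3, another regulatory subunit of PI3K, was at 114 ± 1.4 and 132 ± 3.6 CPM (0.20 ± 0.05, adjusted p = 0.087), the only one under an adjusted p of 0.1. Mouse Atxn3 was at 28.0, 29.1 and 30.2 CPM in 15Q and 25.7, 28.4 and 26.9 in 84Q+IGF1 (-0.11 ± 0.08, adjusted p = 0.490), and the human transgene was not analysed here.

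Genes of the electron transport chain, of glycolysis and of the citric acid cycle had small differences, none of which was called. Of 75 nuclear-encoded subunits of the electron transport chain, none was called by edgeR (38 at an unadjusted p under 0.05) or by DESeq2, but 74 had a log2 fold change above 0 (median 0.19), where 48.9% of all genes tested did, and in 41 every 84Q+IGF1 library lay above every 15Q library, against 11.7% of all genes tested. Their sum was 5818, 5950 and 5878 CPM in 15Q, 6698, 6365 and 7081 in 84Q and 6877, 6205 and 6586 in 84Q+IGF1, so the 15Q libraries were the lowest. Without the fold threshold 5 passed at an adjusted p under 0.1, all higher. They were Ndufv1, a complex I subunit, at 75.4 ± 1.1 and 90.6 ± 5.6 CPM (SD, n = 3; 0.27 ± 0.06, adjusted p = 0.0443), Ndufb8 of complex I (0.28, adjusted p = 0.0573), and Uqcrfs1 (0.39, adjusted p = 0.056), Cyc1 (0.32, adjusted p = 0.0581) and Uqcrc2 (0.21, adjusted p = 0.0779) of complex III, the last 2 and Ndufb8 named after their values were seen. Ndufa1 (0.22 ± 0.13, adjusted p = 0.415) and Atp5a1 (0.08 ± 0.06, adjusted p = 0.502) did not pass. All 19 glycolysis genes had a log2 fold change above 0 and none passed (median 0.12), and of 19 citric acid cycle genes 16 were above 0, with Idh3g higher (0.21, adjusted p = 0.0815) and the cytosolic NADP-dependent Idh1 lower (-0.36, adjusted p = 0.0414), both under 1.5-fold.

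Markers of the cerebellar neurons were present in every library, and neither edgeR nor DESeq2 called any among 20 genes of Purkinje cells (5 at an unadjusted p under 0.05), 18 of granule cells (3) and 15 of interneurons (5). The Purkinje cell list summed to 10026, 10317 and 10115 CPM in 15Q and 10369, 10661 and 9624 in 84Q+IGF1. Pcp2, a Purkinje cell protein, was at 129 ± 7.1 and 161 ± 24 CPM (SD, n = 3; 0.33 ± 0.10, adjusted p = 0.121) and Rora, a nuclear receptor that Purkinje cells require, at 307 ± 35 and 257 ± 18 CPM (-0.26 ± 0.08, adjusted p = 0.144). Pvalb, parvalbumin of Purkinje cells and interneurons, was higher below the fold threshold (0.30 ± 0.07, adjusted p = 0.0484). Nor was a gene called among 20 of astrocytes, where Aqp4, the water channel, had -0.28 ± 0.07 (adjusted p = 0.0732), among 19 of microglia or among 24 immediate early genes (7, 0 and 3 at an unadjusted p under 0.05, and 0 called by DESeq2). Of 37 interferon-stimulated genes 1 was called by edgeR, a share near the 2.06% of all genes called lower, and 2 by DESeq2 (the same gene and Iigp1, an interferon-inducible GTPase, at -0.73 with adjusted p = 0.115 in edgeR), while 31 had a log2 fold change below 0 (median -0.21). The gene called by edgeR was Ifi205, which passed the filter only through 15Q, with 19, 42 and 62 counts in 15Q and 4, 5 and 4 in 84Q+IGF1. Without the fold threshold 2 of the 37 were higher and 1 lower at an adjusted p under 0.1. Of all genes tested, 1.04% were higher and 2.63% lower by this rule.

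Directly against 84Q, 84Q+IGF1 had 0 genes called of 19353 in the edgeR fit, with 905 at an unadjusted p under 0.05. None of the 435 genes called against 15Q was among the calls, 71 of them had an unadjusted p under 0.05, and the smallest adjusted p was 0.969. DESeq2 called 1 of the 435. The comparisons with 15Q and with 84Q share libraries, so their values are only set side by side. For Suds3 the log2 fold change was 0.87 in 84Q+IGF1 and 0.84 in 84Q, both against 15Q, for Il33 -1.11 and -0.75, for Gm10601 1.40 and 0.84, for Igf1 -0.57 and -0.62, and for Cps1 -2.78 and -2.63.

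In 26 of the 435 genes the difference of 84Q from 15Q was less than 1 part in 3 of that of 84Q+IGF1. Among the 10 with the smallest p were Tmem182, Cd36, Klk6, Cybrd1, Fap, Lbp, Wfdc2, A1cf and 3110009M11Rik. Tmem182, a muscle membrane protein, had 10, 22 and 30 counts in 15Q, 15, 12 and 10 in 84Q and 3, 2 and 3 in 84Q+IGF1 (-2.22 ± 0.41, adjusted p = 0.0161). Cd36, a fatty acid transporter, had 27, 47 and 91 counts in 15Q, 35, 12 and 8 in 84Q and 3, 10 and 9 in 84Q+IGF1 (-2.17 ± 0.43, adjusted p = 0.026), and its call was lost without 15Q replicate 3 (-1.96). Fap, a protease of activated fibroblasts, had 54, 51 and 89 counts in 15Q, 23, 39 and 13 in 84Q and 16, 9 and 14 in 84Q+IGF1 (-1.66 ± 0.37, adjusted p = 0.0459), and its call was lost without 15Q replicate 3 (-1.69) or 84Q+IGF1 replicate 2 (-1.45) or 3 (-1.64). In Lbp, which binds bacterial lipopolysaccharide, the 84Q libraries had 47, 245 and 27 counts, the high one being the library with the most choroid plexus markers, against 11, 25 and 31 in 84Q+IGF1. Its call (-3.10 ± 0.70, adjusted p = 0.0479) was lost without 15Q replicate 3 (-2.98) or 84Q+IGF1 replicate 1 (-2.84) or 2 (-3.19). That of Cybrd1 was lost without 15Q replicate 3 (-0.98) or 84Q+IGF1 replicate 1 (-0.95) or 3 (-0.91). Wfdc2 and A1cf passed the filter only through 15Q, and 3110009M11Rik only through libraries of the 84Q line. The latter was not called without 15Q replicate 2 (1.17) or 3 (1.33) or 84Q+IGF1 replicate 2 (1.25) or 3 (1.11). The selection used both contrasts with 15Q, and the direct difference between 84Q+IGF1 and 84Q did not pass for any of the 10.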

How the data were processed

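Total RNA of the cerebellum of 9 mice, 3 per group, was sequenced from strand-specific libraries. Per the methods of the authors, Trimmomatic 0.36 served for trimming, HISAT2 2.2.0 for alignment to GRCm38.p6 and featureCounts for counting per gene, whose annotation and strand setting are not given in the sources used here. The deposited values are raw read counts.

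Counts of 37816 genes were fitted in edgeR 4.0.16 (R 4.3.3) over all 9 libraries in 3 groups, with TMM normalization, filterByExpr and two-sided quasi-likelihood tests, and standard errors were derived from the F statistic. The fit was tested on simulated counts. DESeq2 1.42.0 was an alternative, with others on filter, scaling, threshold, covariates and each library left out. TPM used the union of exons in GENCODE vM21. Ratios of 1 to 3 counts have exact 95% intervals, which cover counting error only. Replicates are separate mice, and no pair of libraries agreed within counting noise.

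The comparison and the gene lists were chosen with earlier results of these data known. The genes named were set by rule, as all genes called higher, the 15 called lower with the smallest p at 1 CPM or more, at most 4 called genes of each list, the genes the study names, Atxn3, the 10 genes described last and at most 20 called genes at 20 CPM or more in 15Q. Some genes that the rule names are not reported here. Exceptions are marked, and Dpp4, Ccl21b, Gm10591, Ccl21a, Mbp, Igf2 and Igfbp2 were also named after their values were seen. None of the 13 mitochondrially encoded genes listed was matched, and they were not analysed here.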

Additional observations from a re-analysis of the deposited data

How the results depend on the processing

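Of the genes called against 15Q, 435 in the fit reported, the number was 1284 with no filter on low counts (91 higher, 1193 lower), 711 with no fold threshold (202 higher), 281 at an adjusted p under 0.05 (20 higher, 261 lower) and 271 with the replicate number as a block (247 lower). With DESeq2 it was 588, with only the 6 libraries compared 583, with library totals in place of TMM 434, and with a term for Xist or Y-linked expression 352. Robust shrinkage gave 430 calls, with 18 of the named genes no longer called, among them Col3a1, Slc13a4, Slc6a20a, Lbp, Capn11 and Rpl3-ps2, and the Xist or Y-linked term ended 14 named calls. Of the 435 genes, 405 were also called by DESeq2, 426 with no filter and 268 with the replicate block. Replicate numbers did not pair the samples, because the correlations of same-numbered libraries ran from -0.31 to 0.08, so the block result is given only here. Leaving out each library in turn gave 226 to 629 calls, 13 to 45 higher and 205 to 584 lower. Counts fell to 244 without 15Q replicate 2 (13 higher, 231 lower) and 226 without 15Q replicate 3 (21 higher, 205 lower), and without 84Q+IGF1 replicate 1 there were 23 higher. In all 9 of these fits 184 of the 399 genes called lower and 10 of the 36 called higher were kept. A gene that a fit did not test counts as kept in it. Against 84Q, the number of the 435 called was 27 with no filter and 1 with DESeq2, and between 0 and 2 when libraries were left out (2 without 84Q replicate 2, 1 without 84Q+IGF1 replicate 3). No called gene that is named changed direction under any alternative run. Among named genes not called, 20 were called under some alternative, where the alternatives include no fold threshold. Of genes not called, Kdm5d turned to -0.13 with the Xist or Y-linked term, Jak2 ran from -0.0139 (without 15Q replicate 1) to 0.0849, also below 0 without 84Q+IGF1 replicate 2 (-0.0034), and Creb1 from -0.113 to 0.00097 (without 84Q+IGF1 replicate 1). Why these values moved was not tested, beyond fewer samples or more genes in the fit. Depth limits what can be said of the 99 genes called lower with at most 3 counts in every 84Q+IGF1 library.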

Other observations

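Immunoglobulin genes rested on a single mouse. Igkc, the kappa light chain, had 8, 6 and 1268 counts in 15Q, 19, 8 and 25 in 84Q and 0, 4 and 4 in 84Q+IGF1, and Ighm, the IgM heavy chain, had 141, 226 and 3804 counts in 15Q against 95, 107 and 136 in 84Q+IGF1. Only 15Q replicate 3 was high, and neither gene passed the edgeR test (Igkc, adjusted p = 0.118, and Ighm, adjusted p = 0.13). Ttr, the thyroxine carrier made by choroid plexus and liver and named after its values were seen, was at 354, 5.11 and 339.7 CPM in 15Q and 832 CPM in 84Q replicate 2. In 84Q+IGF1 it was at 1.33, 1.84 and 19.8 CPM, which accounts for the spread of the list of secreted liver proteins.

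Of 12 smooth muscle genes tested none was called by edgeR (median log2 fold change -0.24, 4 at an unadjusted p under 0.05, against 17.7% of all genes) or by DESeq2, and the sums of the whole list overlapped, at 246, 242 and 248 CPM in 15Q and 199, 221 and 255 in 84Q+IGF1. Myh11, the smooth muscle myosin, was the 1 gene under an adjusted p of 0.1, at 23.4 ± 1.8 CPM in 15Q and 16.5 ± 2.8 CPM in 84Q+IGF1 (SD, n = 3; -0.50 ± 0.14, adjusted p = 0.0893). Of 22 endothelial and pericyte genes 1 was called lower, where 2.06% of all genes tested were. It was Anpep, an aminopeptidase that brush border and pericytes share, at 9.65 ± 2.1 and 5.33 ± 0.32 CPM (-0.86 ± 0.18, adjusted p = 0.0369), and its call was lost without 15Q replicate 2 (-0.88) or 3 (-0.68) or 84Q+IGF1 replicate 1 (-0.82). Of 23 fatty acid oxidation genes 1 was called lower, also against 2.06% of all genes. It was Acox2, a peroxisomal oxidase of bile acid synthesis in liver, with 19, 26 and 65 counts in 15Q and 1, 1 and 1 in 84Q+IGF1, and it passed the filter only through 15Q. The 26 clustered protocadherin genes tested had no call (median -0.03), nor had blood genes (11 tested) or lymphocyte genes (9 tested), with 4, 2 and 5 at an unadjusted p under 0.05 in edgeR and 0 called by DESeq2.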
